A study of Mus musculus with 11 samples.

Results

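The surfactant and alveolar type 2 genes described here are Sftpa1, Sftpb, Sftpc, Sftpd, Abca3, Lamp3, Napsa, Slc34a2, Lpcat1 and Cxcl15. They were taken by symbol from a table of 36285 transcripts, in which 12 transcript rows carry 1 of the 10 symbols, and the rows of a symbol were summed. All 10 of these genes were in the table, among 24515 gene symbols, and all 10 were among the 15764 genes with enough counts to be tested. The libraries are 11 poly-A RNA libraries of mouse lung, read on an Ion Proton instrument. They come from 5 Gprc5a-/- mice that received NNK (nicotine-derived nitrosamine ketone), a carcinogen of tobacco smoke, by intraperitoneal injection at 50 mg/kg, 3 times a week for 8 weeks. The normal group is adjacent lung tissue of these same 5 mice, so it shares the Gprc5a deletion and the NNK treatment, and no wild-type or untreated lung was analysed here. The labels tag 3 tumors as ADN and 3 as ADC without spelling the tags out, and the tags are used as given. Tumors of both kinds came from mouse m335, at 4 months after NNK, with a single normal lung for the pair. Mouse m368 gave an ADN tumor at 6 months, mouse m350 an ADN tumor at 7 months, and mice m372 and m378 an ADC tumor each at 7 months. Each library is a piece of tissue with many cell types, and the sources used here do not give the age or sex of the mice.

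Surfactant is the film of lipids and proteins that lowers surface tension in the air spaces, and alveolar type 2 cells make, store and secrete it. Its hydrophobic proteins, encoded by Sftpb and Sftpc, are cut from larger precursors, packed with phospholipid into lamellar bodies and released with them, while the collectins encoded by Sftpa1 and Sftpd bind microbes and take part in the defence of the air spaces. Alveolar type 2 cells are also progenitors of the alveolar epithelium and a known cell of origin of mouse lung adenoma and adenocarcinoma. The transcription factors NKX2-1, C/EBP alpha and the forkhead factors FOXA1 and FOXA2 are known regulators of surfactant genes.

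The promoters of 4 of the genes are shown because they hold short motifs of the textbook regulators, or a TATA box, and because the genes were counted in the same libraries as those regulators. Each is the 250 bases before the annotated start, from RefSeq (GRCm38.p6), plus strand, written 5′ to 3′: Sftpa1 at chr14:41131538-41131787, Sftpb at chr6:72304360-72304609, Slc34a2 at chr5:53049103-53049352 and Cxcl15 at chr5:90794284-90794533. Capitals mark matches, on either strand, to CTCAAG (the core of NKX2-1 sites), TTGCNNAA (C/EBP), TGTTTNC (forkhead) and TATAAA (the motif known as the TATA box).
Sftpa1: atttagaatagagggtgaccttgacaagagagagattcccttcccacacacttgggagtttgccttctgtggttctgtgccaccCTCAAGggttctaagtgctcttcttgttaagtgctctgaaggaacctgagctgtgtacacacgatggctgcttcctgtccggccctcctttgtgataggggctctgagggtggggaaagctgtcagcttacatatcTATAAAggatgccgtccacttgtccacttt
Sftpb: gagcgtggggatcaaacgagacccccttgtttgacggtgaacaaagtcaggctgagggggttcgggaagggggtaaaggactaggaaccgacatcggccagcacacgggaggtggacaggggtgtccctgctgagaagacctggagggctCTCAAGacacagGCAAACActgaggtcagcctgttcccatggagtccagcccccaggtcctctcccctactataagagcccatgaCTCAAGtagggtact
Slc34a2: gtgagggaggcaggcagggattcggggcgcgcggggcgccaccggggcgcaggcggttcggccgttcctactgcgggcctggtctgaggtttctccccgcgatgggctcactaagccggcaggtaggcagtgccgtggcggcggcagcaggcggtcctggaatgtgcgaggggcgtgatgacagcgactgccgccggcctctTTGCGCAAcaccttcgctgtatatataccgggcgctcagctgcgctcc
Cxcl15: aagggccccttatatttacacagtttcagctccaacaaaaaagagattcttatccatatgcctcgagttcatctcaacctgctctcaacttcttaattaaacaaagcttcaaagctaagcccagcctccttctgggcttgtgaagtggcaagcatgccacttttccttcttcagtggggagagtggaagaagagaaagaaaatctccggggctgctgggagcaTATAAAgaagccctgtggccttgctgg

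Promoter entries were matched for 7 of the 10 genes: these 4, Abca3, Lamp3 and Lpcat1. Counting the base before the start as -1, the CTCAAG match in Sftpa1 begins at -166 and those in Sftpb at -100 and -15. The forkhead match in Sftpb begins at -88, the C/EBP match in Slc34a2 at -48, and the TATA box at -30 in Sftpa1 and at -27 in Cxcl15. Lamp3 (promoter not shown) holds forkhead matches at -162 and -92. Among 32851 mouse promoters of the same length, CTCAAG was found in 13.3%, TTGCNNAA in 9.56%, TGTTTNC in 17.8% and TATAAA in 12.4%, so these matches are common letters and only describe the sequences.

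Library totals lay between 19938822 counts (normal lung of m372) and 46987587 (ADC tumor of m372). Rn45s, a precursor of ribosomal RNA, took 7.29% to 19.2% of a library, and Gprc5a had 0 to 19 counts in every library. The ADC tumor of mouse m335 stood apart from the other tumors in the genes described here, and the tests below are given with and without it. That tumor was singled out by the levels of these same genes, in each of which it was the lowest tumor. Larger estimates and smaller p-values without it are thus largely built into the choice and are not separate support for a rise. Counts in this assay are of bulk tissue, in which fewer cells of a type and less RNA per cell cannot be told apart.

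Together the 10 genes took 6.20% of all counts in the normal lung of mouse m335, 5.16% in m368, 5.96% in m350, 5.36% in m372 and 4.69% in m378. In ADN tumors they took 13.1% (m335), 11.3% (m368) and 10.9% (m350), and in ADC tumors 12.1% (m372), 10.6% (m378) and 3.76% (m335). All ADN tumors and 2 ADC tumors thus lay above every normal lung. The remaining ADC tumor, of mouse m335, lay below every one. Sftpc, the precursor of the smallest surfactant protein, was the gene with the most counts after Rn45s in 10 libraries and ranked 3 in the ADC tumor of m335.

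**Figure D1:**
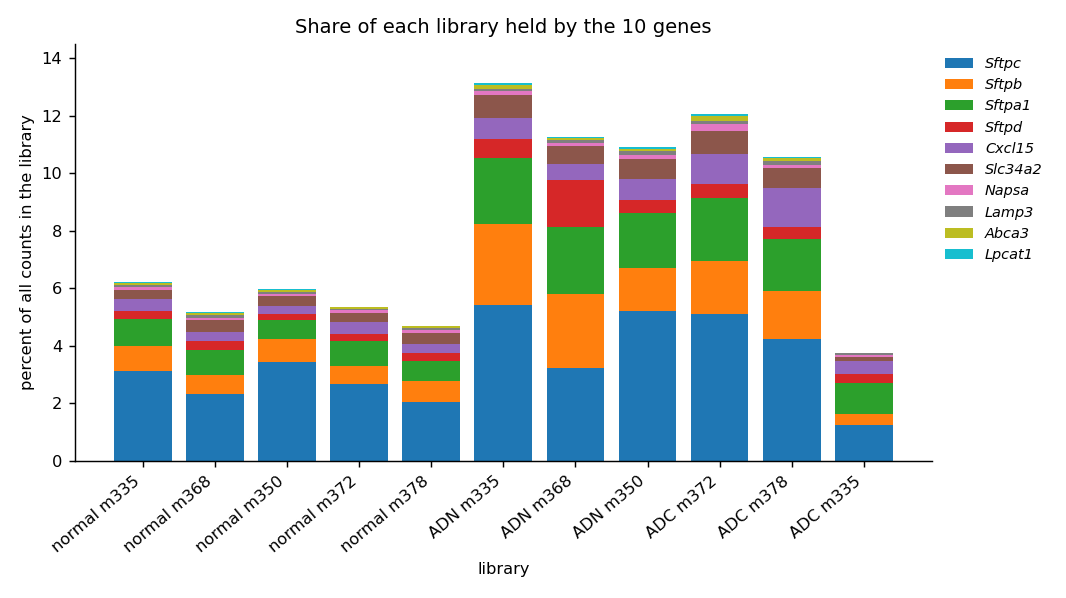
Stacked bars give the percent of all counts in each library (y axis) taken by each of the 10 genes, for 5 normal lungs, 3 ADN and 3 ADC tumors (x axis). The bars of 5 tumors reach 10.6% to 13.1%, those of normal lungs 4.69% to 6.20%, and that of the ADC tumor of mouse m335 3.76%.

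Levels below are CPM, a gene's counts brought to a common library size, with sizes scaled by TMM, a method that centres most genes between libraries, and comparisons between genes divide CPM by transcript length. Per kilobase of transcript, Sftpc was the most abundant of the 10 in normal lungs, at 32030 ± 6909 CPM per kb (SD, n = 5). Sftpb followed at 5786 ± 875, Sftpa1 at 2650 ± 381, Sftpd at 1919 ± 350 and Cxcl15 at 1494 ± 275 CPM per kb. The other 5 genes were lower: Slc34a2 at 813 ± 94.2, Napsa at 514 ± 93.4, Lamp3 at 189 ± 40.7, Abca3 at 98.9 ± 13.5 and Lpcat1 at 54.9 ± 13.4 CPM per kb. The ranges over the normal lungs did not overlap between neighbours in this order except for Sftpa1 with Sftpd and Sftpd with Cxcl15.

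Tumors were compared with normal lungs by edgeR's quasi-likelihood test with the mouse as a block. A total of 4 of the 10 genes rose past the adjusted p threshold of 0.05, Sftpa1, Sftpd, Lamp3 and Cxcl15, and none fell. Among all genes tested 11.1% passed in either direction, 3.45% higher and 7.66% lower. The remaining 6 genes had positive estimates that did not pass the threshold. The median log2 fold change of the 10 was 1.07, where the median of all genes tested was -0.04. Without the ADC tumor of mouse m335 all 10 were higher past the threshold, beside 8.98% of all genes, with a median of 1.31 and a median of all genes of -0.01. The choice of that tumor by these same genes favours this count. When libraries were scaled to 8 genes of epithelium in general in place of TMM, none of the 10 passed, beside 0.552% of all genes higher, and the estimates of Sftpc, Sftpd, Abca3, Lamp3, Napsa, Slc34a2 and Lpcat1 turned negative. That scaling moved the median of all genes to -1.33, and most genes tested then passed as lower, which none of the 10 did. The median of the 10 genes under it was -0.27. Scaling to library totals moved the median of all genes to -0.23 and left 2 of the 10 past the threshold, Sftpa1 and Cxcl15, beside 2.27% of all genes higher. Leaving out all libraries of a mouse left none of the 10 past the threshold by edgeR without m350 (1.53% of all genes higher) or m378 (1.32%), 1 without m372 (1.51%), 3 without m368 (2.73%) and 8 without m335 (6.06%). Leaving out only the ADN tumor of m335 left 2 (2.28%). DESeq2 on all 11 libraries called 7 of the 10, beside 8.24% of all genes higher.

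**Figure D2:**
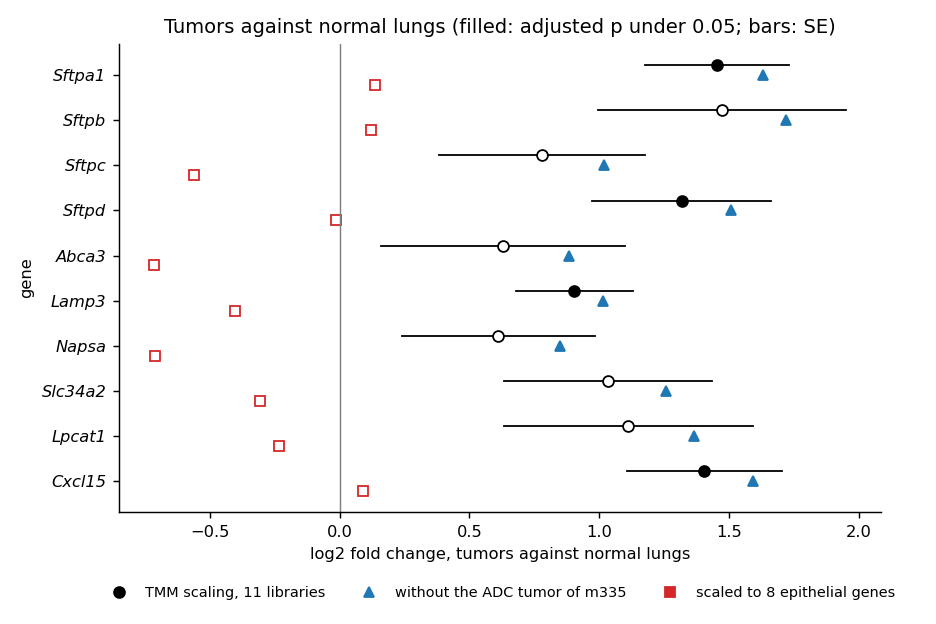
Log2 fold change of each gene in tumors against normal lungs (x axis) with 11 libraries and TMM (circles, bars are 1 SE), without the ADC tumor of mouse m335 (triangles) and with libraries scaled to 8 epithelial genes (squares). Filled symbols have an adjusted p under 0.05 by edgeR: 4 circles, 10 triangles and no square, and 7 of the squares lie below 0. The tumor left out for the triangles was singled out by its low levels in these genes.

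Of the collectins, Sftpa1 (chromosome 14, 41131788 to 41136373, plus strand, GRCm38) encodes surfactant protein A, which binds microbes and organises surfactant lipid. Its level in normal lungs was 8732 CPM in mouse m335, 8433 in m368, 6364 in m350, 7792 in m372 and 6507 in m378. In ADN tumors it was 24507 CPM (m335), 25266 (m368) and 19542 (m350), and in ADC tumors 10915 (m335), 23860 (m372) and 19846 (m378). Every tumor lay above every normal lung, and the ADC tumor of m335 was the lowest of the tumors. Sftpa1 rose by 1.45 ± 0.28 on the log2 scale (SE; a 2.74-fold rise, adjusted p = 0.0113 by edgeR), and by 1.63 without that tumor (adjusted p = 0.000165). Over 13 alternative settings its adjusted p ran from 1.39e-07 to 0.631, and it passed in 10.

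Sftpd encodes surfactant protein D, the other collectin, and lies on the same chromosome (chromosome 14, 41172212 to 41185198, minus strand). Normal lungs had 2862 CPM (m335), 2845 (m368), 1822 (m350), 2182 (m372) and 2527 (m378). ADN tumors had 6821 CPM (m335), 18001 (m368) and 4547 (m350), and ADC tumors 3099 (m335), 5536 (m372) and 4312 (m378). Every tumor again lay above every normal lung, although the ADC tumor of m335 exceeded its own normal lung by little, and the ADN tumor of m368 stood far above the rest. The log2 fold change was 1.32 ± 0.35 (SE; adjusted p = 0.0415 by edgeR), and 1.51 without the ADC tumor of m335 (adjusted p = 0.00364). On library totals it missed the threshold (adjusted p = 0.0583 by edgeR). Sftpd passed in 6 of the 13 settings, with an adjusted p from 0.000557 to 0.966.

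Of the hydrophobic proteins, Sftpb (chromosome 6, 72304610 to 72314373, plus strand) encodes surfactant protein B, which is needed to form lamellar bodies and the surface film. Normal lungs had 8176 CPM (m335), 6015 (m368), 7695 (m350), 5716 (m372) and 6664 (m378). ADN tumors had 30143 CPM (m335), 28433 (m368) and 15064 (m350), and ADC tumors 4139 (m335), 19904 (m372) and 18284 (m378). Of the tumors, 5 lay above every normal lung and the ADC tumor of m335 lay below every one. The estimate of 1.47 ± 0.48 (SE) was the highest of the 10 genes but missed the threshold (adjusted p = 0.0871 by edgeR). It was 1.72 without that tumor (adjusted p = 0.000552), and without the mouse block it was 1.50 and passed (adjusted p = 0.0253). The adjusted p of Sftpb ran from 0.000552 to 0.803 over the 13 settings, with 4 past the threshold.

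Sftpc (chromosome 14, 70520942 to 70524081, minus strand) encodes surfactant protein C, made in the lung almost only by alveolar type 2 cells. Its level was 29760 CPM in the normal lung of m335, 21753 in m368, 32202 in m350, 24034 in m372 and 19124 in m378. ADN tumors had 57474 CPM (m335), 35498 (m368) and 53007 (m350), and ADC tumors 12393 (m335), 55597 (m372) and 45862 (m378). Again 5 tumors were above every normal lung and the ADC tumor of m335 below every one, and the ADN tumor of m368 was close to the highest normal lung. The estimate was 0.78 ± 0.40 (SE; adjusted p = 0.260 by edgeR) with all libraries and 1.02 without that tumor (adjusted p = 0.00202). It passed in 2 of 13 settings (adjusted p from 0.00202 to 0.507). The largest values are deposited to 3 significant digits, which touches Sftpc in most libraries and Sftpa1 in the ADC tumor of m372.

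Of the genes of the lamellar body and its lipid, Abca3 (chromosome 17, 24352023 to 24410204, plus strand) encodes the pump that moves phospholipid into lamellar bodies. It stood at 762, 662, 596, 527 and 629 CPM in the normal lungs of m335, m368, m350, m372 and m378. ADN tumors had 1506 CPM (m335), 646 (m368) and 949 (m350), and ADC tumors 212 (m335), 1742 (m372) and 1120 (m378). The groups overlapped: the ADN tumor of m368 lay within the normal lungs, and the ADC tumor of m335 was far below them. Abca3 did not pass the threshold (0.63 ± 0.47, SE; adjusted p = 0.455 by edgeR), and did without the ADC tumor of m335 (0.88, adjusted p = 0.0256), the 1 of 13 settings in which it passed (highest adjusted p 0.755). D330041H03Rik lies on the opposite strand of Abca3 and had 12.6% to 79.0% of its count, highest in the ADC tumor of m335. Since the sources used here give no strand setting for the counting, the reads of this pair cannot be told apart.

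Lamp3 (chromosome 16, 19653381 to 19706365, minus strand) encodes a membrane protein of lamellar bodies and lysosomes. Normal lungs had 485 CPM (m335), 840 (m368), 657 (m350), 538 (m372) and 649 (m378), ADN tumors 910 (m335), 993 (m368) and 1336 (m350), and ADC tumors 653 (m335), 1349 (m372) and 1612 (m378). The ADC tumor of m335 lay within the normal lungs but above its own, and the other tumors above all of them. Lamp3 rose by 0.90 ± 0.22 (SE; adjusted p = 0.0337 by edgeR), by 1.01 without that tumor (adjusted p = 0.00527), and missed the threshold on library totals (adjusted p = 0.0623). Of the 13 settings it passed in 7 (adjusted p from 0.000203 to 0.143).

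Lpcat1 (chromosome 13, 73467383 to 73514538, plus strand) encodes an acyltransferase that makes the saturated phosphatidylcholine of surfactant. It was at 154 CPM (m335), 277 (m368), 214 (m350), 162 (m372) and 202 (m378) in normal lungs. ADN tumors had 446 CPM (m335), 411 (m368) and 496 (m350), and ADC tumors 59.7 (m335), 782 (m372) and 407 (m378). The tumors fell on both sides of the normal lungs, 5 above all of them and the ADC tumor of m335 below all of them. The estimate was 1.11 ± 0.48 (SE; adjusted p = 0.183 by edgeR), and 1.36 without that tumor (adjusted p = 0.00357), and it passed in 3 of 13 settings (highest adjusted p 0.598).

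Napsa (chromosome 7, 44572445 to 44586846, plus strand) encodes napsin A, a protease that cuts the precursor of surfactant protein B and a marker of lung adenocarcinoma in pathology. Normal lungs had 1025 CPM (m335), 769 (m368), 647 (m350), 715 (m372) and 854 (m378). ADN tumors had 1350 CPM (m335), 1165 (m368) and 1369 (m350), and ADC tumors 480 (m335), 2616 (m372) and 897 (m378). The ADN tumors lay above all normal lungs, while the ADC tumors lay below, above and among them. The estimate of 0.61 ± 0.37 (SE; adjusted p = 0.344 by edgeR) was the lowest of the 10, and it was 0.85 without the ADC tumor of m335 (adjusted p = 0.0413), the 1 of 13 settings in which it passed (highest adjusted p 0.665).

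Slc34a2 (chromosome 5, 53049353 to 53071663, plus strand) encodes the sodium-phosphate cotransporter NaPi-IIb, which takes up phosphate at the apical surface of alveolar type 2 cells. Normal lungs had 3083 CPM (m335), 3941 (m368), 3396 (m350), 2968 (m372) and 3599 (m378). ADN tumors had 8760 CPM (m335), 6876 (m368) and 7093 (m350), and ADC tumors 1640 (m335), 8835 (m372) and 7631 (m378). The 5 tumors other than the ADC tumor of m335 formed a narrow band at 7839 ± 917 CPM (SD), well above the normal lungs, and that tumor lay below all of them. The log2 fold change was 1.03 ± 0.40 (SE; adjusted p = 0.142 by edgeR) with it and 1.26 without it (adjusted p = 0.000987), and passed in 3 of 13 settings (highest adjusted p 0.413).

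Cxcl15 (chromosome 5, 90794534 to 90803067, plus strand) encodes lungkine, a chemokine of mouse lung epithelium that attracts neutrophils. Normal lungs had 3822 CPM (m335), 2783 (m368), 2554 (m350), 3780 (m372) and 2953 (m378). ADN tumors had 7826 CPM (m335), 6475 (m368) and 7617 (m350), and ADC tumors 4386 (m335), 11078 (m372) and 14980 (m378). Every tumor lay above every normal lung, and the highest values were those of the ADC tumors of m372 and m378. Cxcl15 rose by 1.40 ± 0.30 (SE; adjusted p = 0.0177 by edgeR), and by 1.59 without the ADC tumor of m335 (adjusted p = 0.000802). It passed in 9 of 13 settings, with an adjusted p from 5.72e-06 to 0.768. Sftpa1, Sftpd and Cxcl15 were the 3 of the 10 genes whose tumors and normal lungs did not overlap, beside 3.36% of all genes that were higher in every tumor than in every normal lung. No gene of the 10 was lower in every tumor, as 7.89% of all genes were.

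**Figure D3:**
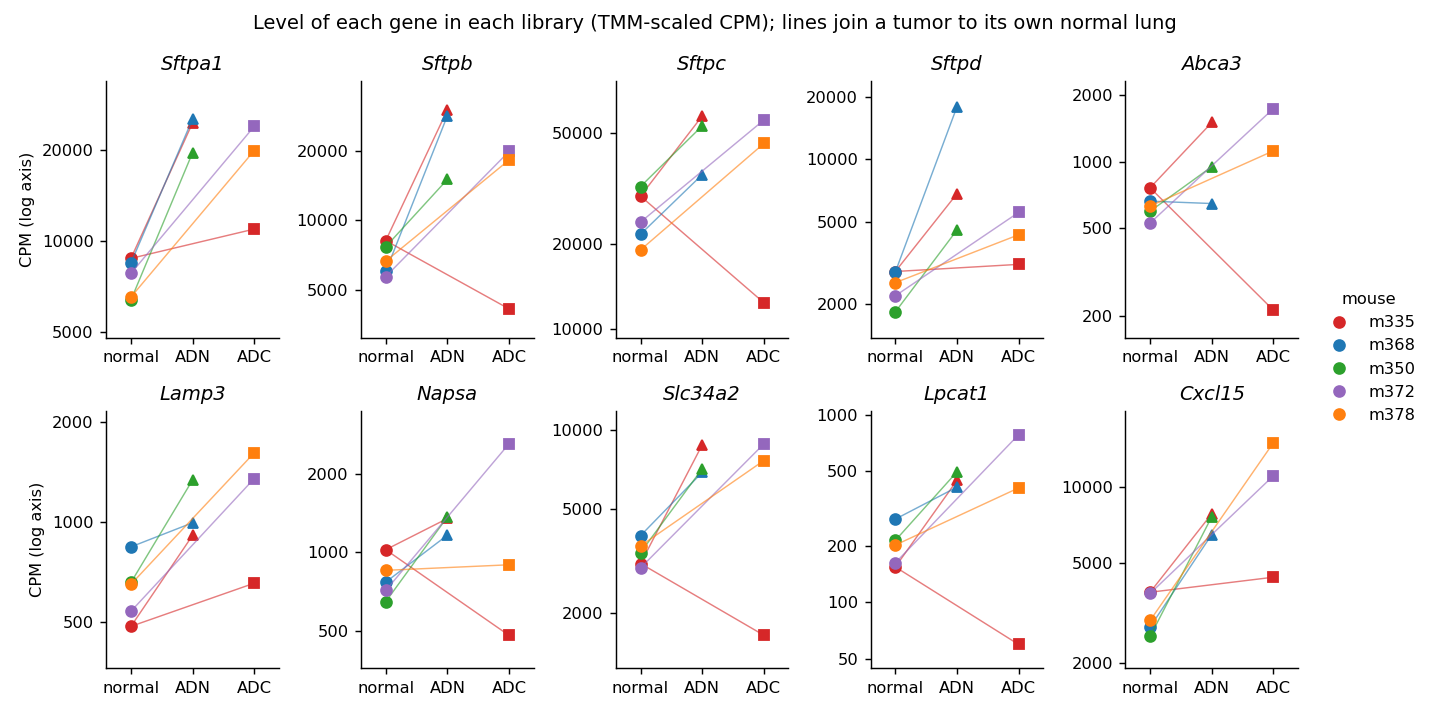
TMM-scaled CPM of each gene (log y axis) in normal lungs (circles), ADN (triangles) and ADC tumors (squares), coloured by mouse, with lines joining a tumor to its own normal lung. Most lines rise, and the line to the ADC tumor of mouse m335 falls for Sftpb, Sftpc, Abca3, Napsa, Slc34a2 and Lpcat1.

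The comparisons of each tumor kind share the normal lungs, so their values are set side by side. In ADN tumors against normal lungs, 2 of the 10 genes passed, Sftpa1 (1.70 ± 0.32, SE; adjusted p = 0.0204 by edgeR) and Sftpd (1.81 ± 0.36; adjusted p = 0.0246), beside 7.24% of all genes in either direction, 2.58% higher and 4.66% lower. The other 8 had estimates from 0.85 (Lamp3) to 1.99 (Sftpb), and 7 of the 10 had an unadjusted p under 0.05, as did 24.0% of all genes. Without the ADC tumor of m335, which enters this fit through the shared mouse term and spread, 7 of the 10 passed, beside 4.91% of all genes higher. Without the mouse block 4 passed (5.04% of all genes higher), and with DESeq2 7 (6.84%). No gene of the 10 passed without the ADN tumor of m335, where no gene at all did, or without the libraries of m368 (0.756% of all genes higher) or of m350 (0.784%).

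In ADC tumors against normal lungs, 0 of the 10 genes passed by edgeR, beside 4.78% of all genes in either direction, 0.977% higher and 3.8% lower. Sftpa1 (1.16 ± 0.34, SE), Lamp3 (0.97 ± 0.30) and Cxcl15 (1.36 ± 0.41) were the 3 with an unadjusted p under 0.05, beside 18.2% of all genes, and DESeq2 called 3, beside 3.5% of all genes higher. The estimates of the other 7 genes ran from 0.22 (Abca3) to 0.79 (Sftpd). Without the ADC tumor of m335, 7 of the 10 passed (Sftpa1, Sftpb, Sftpc, Lamp3, Slc34a2, Lpcat1 and Cxcl15), beside 2.32% of all genes higher. That fit has 2 ADC tumors, leaves out the tumor that was lowest in these genes, and had a median over the 10 genes of 1.35. Without the mouse block 2 passed, beside 3.43% of all genes higher.

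Between the tumor kinds, ADC against ADN, none of the 10 genes passed by edgeR or DESeq2, where 1 gene in all passed by edgeR (0.00634%). None had an unadjusted p under 0.05 by edgeR, as 6.65% of all genes did. The estimates ran from -1.24 ± 0.76 (Sftpb, SE) to 0.12 ± 0.38 (Lamp3), with errors too wide to show that the kinds are alike. Without the ADC tumor of m335, 8 of the 10 estimates were positive and those of Sftpb (-0.11) and Sftpd (-0.72) stayed negative, with none past the threshold. Only mouse m335 gave both kinds.

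Against its own normal lung, each of 5 tumors had a median log2 difference over the 10 genes between 0.75 (ADN of m368) and 1.59 (ADC of m372). The ADN tumor of m335, the ADN tumor of m350 and the ADC tumors of m372 and m378 were higher for all 10 genes, and the ADN tumor of m368 for 9, with Abca3 at -0.04. Of all genes, 43.5% to 49.4% were higher in these 5 tumors, with medians from -0.14 to -0.0066. In the ADC tumor of m335 the median was -0.95, where the median of all genes was -0.01. That tumor was higher for 4 of the 10 genes and lower for 6, near the 49.1% of all genes that were higher. The lower genes were Abca3 (-1.84), Lpcat1 (-1.37), Sftpc (-1.26), Napsa (-1.09), Sftpb (-0.98) and Slc34a2 (-0.91). The genes higher by little were Lamp3 (0.43), Sftpa1 (0.32), Cxcl15 (0.20) and Sftpd (0.11). Sftpa1, Sftpd, Lamp3 and Cxcl15 were thus the 4 genes above the own normal lung in all 6 tumors, a pattern seen in 8.06% of all genes. Sftpb, Sftpc, Napsa, Slc34a2 and Lpcat1 were higher in 5 tumors and lower in the ADC tumor of m335, as were 5.08% of all genes. The ADN tumor of the same mouse, with the same normal lung, was higher for all 10, from 0.40 (Napsa) to 1.88 (Sftpb).

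**Figure D4:**
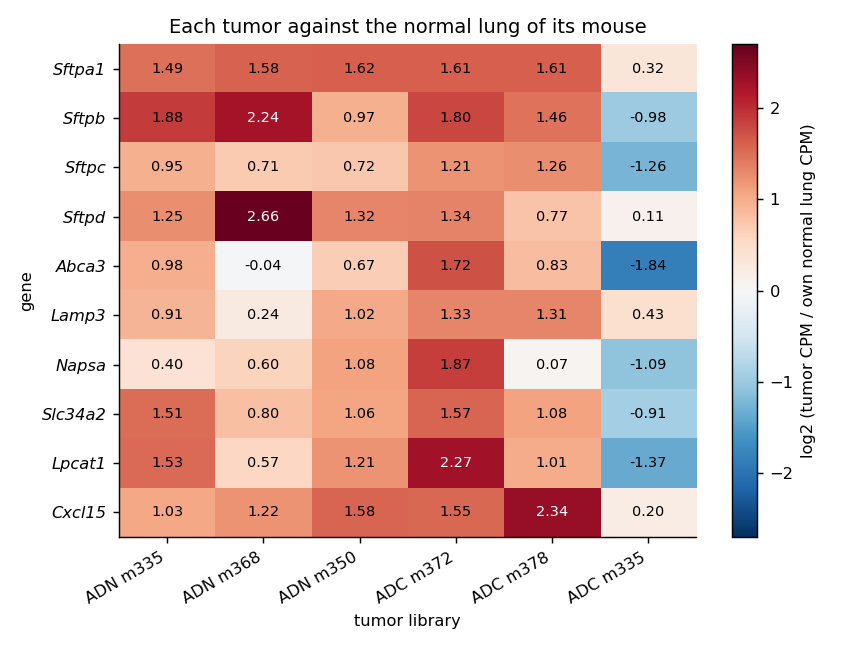
Each cell is the log2 ratio of CPM in a tumor (x axis) to the normal lung of its mouse for 1 gene (y axis), red where the tumor is higher and blue where it is lower. The column of the ADC tumor of mouse m335 is blue for 6 genes, to -1.84 for Abca3, and pale red for the other 4.

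Ratios within a library do not depend on scaling between libraries. The ratio of Sftpa1 to Sftpc counts was 0.198 to 0.388 in normal lungs, 0.369 to 0.712 in ADN tumors, 0.429 and 0.433 in the ADC tumors of m372 and m378 and 0.881 in the ADC tumor of m335. In that last tumor the level of Sftpc was below that of every normal lung, and the level of Sftpa1 above. The ratio of Sftpd to Sftpc was 0.0566 to 0.132 in normal lungs, 0.507 in the ADN tumor of m368, 0.250 in the ADC tumor of m335 and 0.0858 to 0.119 in the other tumors. Sftpb to Sftpc was 0.238 to 0.348 in normal lungs and highest, at 0.801, in the ADN tumor of m368. Cxcl15 to Sftpc was 0.0793 to 0.157 in normal lungs and reached 0.327 in the ADC tumor of m378 and 0.354 in that of m335. These ratios show unequal change between genes, not which gene changed.

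**Figure D5:**
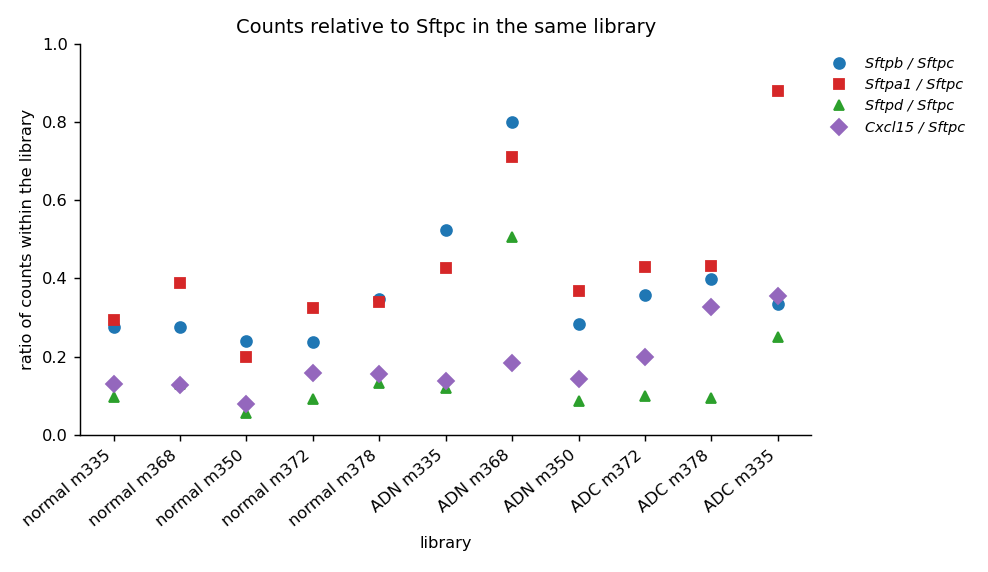
Counts of Sftpb, Sftpa1, Sftpd and Cxcl15 divided by counts of Sftpc in the same library (y axis), for normal lungs, ADN and ADC tumors (x axis). The ADN tumor of mouse m368 stands highest for Sftpb (0.801) and Sftpd (0.507), and the ADC tumor of mouse m335 for Sftpa1 (0.881) and Cxcl15 (0.354).

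Markers of several other cell types differed between tumors and normal lungs. Of 14 genes of epithelium in general, 12 rose in tumors, among them Epcam (1.52 ± 0.20, SE; adjusted p = 0.00183 by edgeR), Krt18 (1.88 ± 0.36; adjusted p = 0.0113) and Esrp1 (1.70 ± 0.20; adjusted p = 0.00123), with a list median of 1.29, while Krt7 (0.67 ± 0.40; adjusted p = 0.334) did not pass. Their summed level was 1303 to 2001 CPM in normal lungs, 2927 to 5510 in ADN tumors and 2952 to 3340 in ADC tumors. Of 15 endothelial genes 13 fell (median -2.27), with sums of 4148 to 7548 CPM in normal lungs and 952 to 1525 in tumors. Of 14 fibroblast genes 8 fell (median -1.52), with sums of 4102 to 5728 CPM in normal lungs and 1462 to 2285 in tumors. Of 15 alveolar type 1 genes 6 fell (median -0.99), with sums of 6814 to 10311 CPM in normal lungs and 4155 to 6611 in tumors. Of 11 erythrocyte genes 10 fell (median -3.10), with sums of 7489 to 31814 CPM in normal lungs and 1294 to 6092 in tumors. This list holds near-identical globin genes among which reads can be split, and Hbb-bt and Hbb-b2 had the same fitted values, so its count and sums are uncertain. In the same test 1 of 15 club (median -0.84) and 2 of 12 ciliated genes (median -0.56) fell. Club sums were 4059 to 26456 CPM in normal lungs and 1698 to 13902 in tumors, and ciliated sums 1413 to 1957 and 452 to 1555. Among all genes tested 3.45% rose and 7.66% fell, and the club count was near the share that fell. No gene of these marker lists was at 0 counts in any library. The part of this mixture in the levels of the surfactant genes was not tested.

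The 10 genes were therefore also set against the mean log2 CPM of 8 epithelial genes (Epcam, Cdh1, Esrp1, Grhl2 and 4 others), all of which were higher in tumors. Their summed level was 621 to 752 CPM in normal lungs and 1298 to 2008 CPM in tumors, with 1427 CPM in the ADC tumor of m335. Over the 5 mice, the difference between tumor and normal lung on this relative scale ran from -0.73 ± 0.73 for Abca3 to 0.18 ± 0.37 for Sftpa1 (SD, n = 5 mice, the tumors of m335 averaged). The exact two-sided sign-flip permutation p was 0.125 to 1 (adjusted p over the 10 genes 0.3125 to 1), and with 5 mice the smallest p that can be reached is that of 2 in 32 sign assignments, above 0.05. Sftpc was lower relative to these genes by 0.54 ± 0.58 on average. Sftpc, Sftpd, Abca3, Lamp3, Napsa, Slc34a2 and Lpcat1 were each higher in 1 of 5 mice, Sftpb in 3, and Sftpa1 and Cxcl15 in 4. The mean of Sftpd was 0.071 ± 0.93, and the mouse in which it was higher was m368 (1.69). In the ADC tumor of m335 all 10 genes were below the own normal lung on this scale, from -0.64 (Lamp3) to -2.91 (Abca3). On the same scale its Sftpc was at -2.33, and that of the ADN tumor of the same mouse at -0.61.

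Other genes of surfactant production were counted as lists, with the 10 genes left out. Among all genes tested 3.45% rose and 7.66% fell, and the counts of the lipid list below were near these shares. Of 25 genes of processing, storage and release, 4 rose and none fell (median 0.32). They were Ctsh, a cathepsin that cuts surfactant protein precursors (2.32 ± 0.24, SE; adjusted p = 0.000902 by edgeR), Rab38 (1.82 ± 0.22; adjusted p = 0.00149) and Rab27a (1.52 ± 0.24; adjusted p = 0.00435), small GTPases of lysosome-related organelles, and Atp1b1, a subunit of the sodium pump (1.49 ± 0.37; adjusted p = 0.0355). The abundant cathepsin gene Ctsb was at 0.08 ± 0.27 and did not pass. Every tumor had more Ctsh than its normal lung, including by 2.42 on the log2 scale in the ADC tumor of m335. Of 22 genes of lipid synthesis, 1 rose, Acsl4, a fatty acid ligase (1.30 ± 0.29; adjusted p = 0.0217), and 2 fell, with a median of 0.22. Those were Gpam, the first enzyme of glycerolipid synthesis (-2.23 ± 0.27; adjusted p = 0.00152), and Mfsd2a, a lysophospholipid transporter (-2.24 ± 0.41; adjusted p = 0.00900). The abundant desaturase Scd1 was at -0.38 ± 0.36 and the fatty acid elongase Elovl1 at 0.67 ± 0.41, neither past the threshold. The summed level of the lipid list overlapped between normal lungs (6843 to 11553 CPM) and tumors (4981 to 16019 CPM).

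Of 28 other genes of alveolar type 2 cells, 2 rose, Ctsh and Dram1, a lysosomal membrane protein (1.42 ± 0.27, SE; adjusted p = 0.0118 by edgeR). The lysozyme gene Lyz1 fell (-2.12 ± 0.48; adjusted p = 0.0232), and the median of the list was 0.45. The lysozyme gene Lyz2, which macrophages also express, was at 0.23 ± 0.31 and Cd74, of MHC class II processing, at 0.99 ± 0.32, neither past the threshold. The counts of 2 higher and 1 lower of 28 were near the shares of all genes, 3.45% and 7.66%. Ctsh is also counted in the processing list above. Without the ADC tumor of m335, an alternative chosen after seeing the data for the lists, 12 of these 28 rose and 2 fell. Of the 25 processing genes 7 then rose and 2 fell, and of the 22 lipid genes 6 rose and 3 fell. In that fit 8.98% of all genes were higher past the threshold. Under epithelial scaling the medians of these lists were -0.85 (other alveolar type 2 genes), -0.95 (processing) and -1.09 (lipid), each above the -1.33 of all genes.

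Of 24 transcription factors of lung epithelium, 9 rose and 1 fell, beside 3.45% and 7.66% of all genes. Their median of 0.66 turned to -0.66 under epithelial scaling, which moved the median of all genes from -0.04 to -1.33. Without the ADC tumor of m335 14 rose and 1 fell, beside 8.98% of all genes higher. Etv4, a target of receptor tyrosine kinase signalling, rose most (5.09 ± 0.49, SE; adjusted p = 0.000780 by edgeR), from a very low mean of 0.966 CPM in normal lungs. The forkhead gene Foxp2 (2.22 ± 0.57; adjusted p = 0.0399) and the ETS gene Elf5 (2.10 ± 0.51; adjusted p = 0.0302) followed. Foxp2 was at 208 CPM in the ADN tumor of m368 and at 9.36 to 26.6 CPM in the other tumors. Cebpa, which encodes C/EBP alpha, rose by 1.61 ± 0.41 (adjusted p = 0.0360), and Hopx, a gene of alveolar type 1 cells, changed by -1.69 ± 0.22 (adjusted p = 0.00178). The rule for naming genes does not take Nkx2-1, Foxa1 and Foxa2, which are added here, with their values known, because their motifs were searched above. Nkx2-1 was at 0.49 ± 0.25 and did not pass (adjusted p = 0.269), while Foxa1 (1.08 ± 0.23; adjusted p = 0.0184) and Foxa2 (1.25 ± 0.26; adjusted p = 0.0161) rose. In the ADC tumor of m335, relative to its normal lung, Nkx2-1 was at -0.48, Cebpa at -0.32 and Elf5 at -0.94, while Foxa1 was at 0.33, Foxa2 at 1.03 and Etv4 at 2.80. In the ADN tumor of that mouse Nkx2-1 was at 0.48, Cebpa at 2.13, Elf5 at 2.15 and Foxa2 at 1.86.

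The genes most like each surfactant protein gene were taken by the Pearson correlation of log2 CPM over the 11 libraries, with genes below a mean of 5 CPM left out. These correlations describe libraries that differ in depth and tissue mixture, and in which each tumor shares a mouse with a normal lung. Sftpc was closest to Lgi3 (0.953), which encodes a secreted protein, then Thsd4 (0.940) and 9930014A18Rik (0.938). Sftpb was closest to Grb7 (0.986), Mtcl1 (0.983) and Ick (0.981), Sftpa1 to Sh3d19 (0.981), Zmat3 (0.979) and Gys1 (0.977), and Sftpd to Ubxn4 (0.976), Fam83h (0.973) and Kmt5a (0.970). None of these genes was named for more than 1 of the 4. Within the 10 genes, the correlation was highest between Slc34a2 and Lpcat1 (0.967) and lowest between Sftpd and Abca3 (0.357).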

How the data were processed

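Expected counts of RefSeq transcripts in 11 libraries were deposited by the authors, unnormalized, with coordinates on mm10. Per the labels, the Ion Total RNA-Seq Kit v2 was used on poly-A RNA (integrity numbers of 7 or more). The submitters' processing notes name STAR (2.4.1d), Bowtie2 (2.1.0) and Partek, without their roles, and the sources used here give no strand setting. Counts were summed by symbol and rounded. Genes were filtered with filterByExpr (15764 kept), scaled by TMM and fitted with the robust quasi-likelihood model of edgeR 4.0.16 in R 4.3.3, with the mouse as a fixed block. Tests were two-sided and adjusted by Benjamini-Hochberg over all genes tested (threshold 0.05). SE is the log2 fold change divided by the root of F.

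Tumors were paired with normal lungs by the labels' mouse numbers, and correlations of deviations between a tumor and its own normal lung were -0.0614 to 0.279. The 10 genes and the gene lists were chosen with earlier results of these data known. Genes named from a list were drawn from the 4 (or fewer) past the threshold with the largest change and the 2 with the highest mean, and for markers of other cell types not all of these are printed. The alternatives were library totals, epithelial scaling, DESeq2 1.42.0, no filter, no mouse block, single transcripts and leaving out mice or tumors. The fit was also run on simulated counts with no mouse effect, no difference in tissue mixture and no outlying tumor. That run therefore cannot speak to the mouse block or to the ADC tumor of m335.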

Additional observations from a re-analysis of the deposited data

Results flagged for a closer look

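Sftpd in the ADN tumor of mouse m368 was 18001 CPM, far from the other 5 tumors, of which the nearest had 6821 CPM (gap over range 0.750). Slc34a2 in the ADC tumor of mouse m335 was 1640 CPM, far below the nearest tumor at 6876 CPM (gap over range 0.728). These were the 2 found in 20 groups of libraries tested by Dixon's criterion, which chance alone passes in about 1 of 20.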

How the results depend on the processing

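Precision is limited by 5 mice, 2 kinds of tumor with 3 libraries each, and 1 tumor that moves against the rest, more than by depth, since each of the 10 genes had at least 1772 counts in every library. All alternatives for the 10 genes were tried in each comparison they apply to, and the cause of each change was not tested. Sftpa1 kept its direction in tumors against normal lungs in the 13 alternatives and its side of the threshold in 10.

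Epithelial scaling changed the sign of some log2 fold changes. In tumors against normal lungs these were Sftpc (-0.56), Sftpd (-0.016), Abca3 (-0.72), Lamp3 (-0.40), Napsa (-0.71), Slc34a2 (-0.31) and Lpcat1 (-0.23). In ADN against normal they were Sftpc (-0.32), Abca3 (-0.49), Lamp3 (-0.54) and Napsa (-0.50). In ADC against normal they were Sftpa1 (-0.074), Sftpb (-0.52), Sftpc (-0.88), Sftpd (-0.44), Abca3 (-1.05), Lamp3 (-0.26), Napsa (-0.98), Slc34a2 (-0.74) and Lpcat1 (-0.67), and in ADC against ADN Cxcl15 (0.048). It called 11962 genes in tumors, 10986 in ADN and 9010 in ADC against normal and 0 in ADC against ADN, and 0 of the 10 genes in tumors and in ADN against normal. DESeq2 called 3349, 3003, 1863 and 136 genes in the same order, and 7, 7 and 3 of the 10 genes in the first 3 comparisons. Library totals called 2 of the 10 in tumors.

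Without the replicate block, 1836 genes and 4 of the 10 passed in ADN against normal, 1517 genes and 2 of the 10 in ADC against normal, and 3 genes in ADC against ADN, where Napsa (0.040) and Cxcl15 (0.47) turned positive. With only the libraries of the groups compared, 7 of the 10 passed in ADN against normal, beside 2.96% of all genes higher, and 89 genes in ADC against normal. Single transcripts gave 470 genes in ADC against normal, and no filter 5 genes in ADC against ADN.

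Leaving out a mouse or a tumor of m335 gave 914 to 3396 genes and 0 to 10 of the 10 in tumors against normal, 0 to 1998 and 0 to 7 in ADN against normal, 75 to 1071 and 0 to 7 in ADC against normal, and 0 to 2 genes in ADC against ADN. In ADC against normal the log2 fold change then ranged from -0.13 to 1.26 for Sftpc, -0.69 to 1.31 for Abca3, -0.49 to 1.0 for Napsa, -0.071 to 1.36 for Slc34a2 and -0.35 to 1.67 for Lpcat1. In ADC against ADN it ranged from -0.73 to 0.013 for Sftpa1, -1.13 to 0.48 for Sftpc, -1.48 to 0.92 for Abca3, -0.094 to 0.65 for Lamp3, -1.26 to 0.24 for Napsa, -1.39 to 0.36 for Slc34a2, -1.68 to 0.71 for Lpcat1 and -0.49 to 0.64 for Cxcl15. Relative to epithelial genes it ranged from -0.19 to 0.34 for Sftpb, -0.33 to 0.25 for Sftpd and -0.050 to 0.40 for Cxcl15.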

Other observations

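Genes of the keratin 8 transitional state, which alveolar type 2 cells pass through on the way to alveolar type 1 cells after injury, were higher in tumors for 6 of 15 and lower for none. Among all genes tested 3.45% were higher and 7.66% lower. The median log2 fold change of the list was 0.85 and turned to -0.46 under epithelial scaling, which moved the median of all genes to -1.33. Ereg (5.60 ± 1.02, SE; adjusted p = 0.00888 by edgeR) and Areg (2.51 ± 0.32; adjusted p = 0.00178), ligands of the epidermal growth factor receptor, Cldn4, a tight junction gene (2.83 ± 0.75; adjusted p = 0.0428), and Clu (1.90 ± 0.29; adjusted p = 0.00398), a secreted chaperone, were among the 6, while Lcn2, an iron-binding protein of innate defence, was at 0.98 ± 0.31 and did not pass (adjusted p = 0.0750). The list summed to 1747 to 3205 CPM in normal lungs and, in tumors, to 3632 to 7787 CPM. The highest sum was that of the ADC tumor of mouse m335, in which Sftpc and Abca3 were lowest, and 3762 CPM of it was Clu. The ADN tumors of m368 and m335 followed, with sums of 7169 and 6234 CPM. Their Sftpc was at 35498 and 57474 CPM, above every normal lung, and their Abca3 at 646 and 1506 CPM. Krt8, Krt18 and Krt19 are in this list and in that of epithelium in general. Genes outside the list went both ways in the ADC tumor of m335. Cd74 was above the own normal lung in every tumor, by 0.39 to 2.19 on the log2 scale. In that ADC tumor and its own normal lung, Cd74 was at 15588 and 3409 CPM and the cathepsin gene Ctss at 1018 and 138 CPM. Other genes of the lists that hold these were lower there, among them Acoxl (13.8 and 147 CPM) and Lgi3 (146 and 628 CPM). Lyz2 was not raised there (12377 and 13358 CPM). Which cells gave the high sum of that tumor, and whether it is tied to the low Sftpc and Abca3, was not tested. Of 21 genes of surfactant uptake and clearance, most of them genes of alveolar macrophages, 1 rose and none fell, beside 3.45% and 7.66% of all genes. The 1 that rose was Ear1, an eosinophil-associated ribonuclease (1.17 ± 0.20; adjusted p = 0.00759 by edgeR). Chil3, a chitinase-like protein, was at 0.43 ± 0.51 and Car4, a carbonic anhydrase, at -1.76 ± 0.49, neither past the threshold (adjusted p = 0.652 and 0.0525). The normal lung of m368 stood at 10655 CPM for this list and the other normal lungs at 1008 to 1922 CPM. Most of that sum was Chil3, at 8720 CPM in the normal lung of m368 and 323 to 919 CPM in the others.

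The authors' estimates also split Sftpb and Abca3 between transcripts. The longer Sftpb transcript, NM_001282071, took 16.6% to 20.9% of the gene in normal lungs, 12.3% in the ADN tumor of m350, 24.1% in the ADC tumor of m335 and 17.8% to 19.2% in the other tumors. Of Abca3, NM_001039581 took 53.0% to 59.7% in normal lungs, and its share in tumors was 46.2% to 60.6%, with the lowest share in the ADN tumor of m350. These shares are the authors' estimates from reads that both transcripts can give, and they were not tested.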
